A study of Mus musculus with 8 samples.

Results

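The 8 septin genes *Sept2*, *Sept4*, *Sept5*, *Sept6*, *Sept7*, *Sept8*, *Sept9* and *Sept11* and the anillin gene *Anln* were followed through the differentiation of mouse oligodendrocyte precursor cells (OPCs) into oligodendrocytes (OLs). They were the rows of the deposited table whose symbol equalled 1 of these names, and all 9 were found, each on a single row, among 23427 genes. The study sequenced mRNA of wild-type (WT) C57BL/6J OPCs on Day 0, Day 1, Day 2 and Day 3, where Day 0 is the time at which growth factors were withdrawn and T3 (thyroid hormone, 40 ng/mL) was given. Cortical tissue of 3 pups aged 7 days was used, and OPCs were kept by panning on anti-PDGFRα after microglia and endothelial cells had been panned away. Each of the 4 days had 2 replicates, which the methods call independent, so that 8 libraries were compared. No library carried a mutation or an added transgene, and the labels and the methods describe the medium and the RNA kit differently. Values are FPKM, fragments scaled by transcript length and library size, which allow levels of genes to be set side by side within a library.

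Septins are GTP-binding proteins that join into rods and filaments at the membrane. They fall into the SEPT2, SEPT6, SEPT7 and SEPT3 subgroups, and members of a subgroup can take the same place in a rod, while SEPT7 has no substitute. Anillin is the scaffold that ties septins, actin, myosin and RhoA together in the contractile ring of a dividing cell. In the myelin of the mature brain, filaments of SEPT2, SEPT4, SEPT7 and SEPT8 with anillin line the noncompact inner layer of the sheath.

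*Sept4* was the member that rose, from 3.94 ± 0.63 to 139.0 ± 12.6 FPKM (Day 0 and Day 3, mean ± SD, n = 2). *Anln* fell within the first day, from 18.9 ± 4.2 to 1.71 ± 0.99 FPKM, and *Sept8* fell on the second, from 100.3 ± 16.8 to 39.2 ± 12.3 FPKM. The upstream sequences of these 3 genes are shown because their courses differed in timing and direction among genes of the myelin filament. Each is the stretch before a RefSeq start site on GRCm38.p6, written 5′ to 3′ on the strand of the gene, with capitals at matches to the motifs named after them. The first is chr11:87580811-87581040 (+), the second chr11:53519486-53519735 (+) and the third chr9:22389207-22389456 (-).
*Sept4*: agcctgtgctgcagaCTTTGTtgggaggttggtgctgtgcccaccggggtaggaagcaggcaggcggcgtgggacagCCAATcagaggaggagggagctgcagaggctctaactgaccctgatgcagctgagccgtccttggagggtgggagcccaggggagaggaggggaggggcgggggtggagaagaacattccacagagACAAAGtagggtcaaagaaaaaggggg
*Sept8*: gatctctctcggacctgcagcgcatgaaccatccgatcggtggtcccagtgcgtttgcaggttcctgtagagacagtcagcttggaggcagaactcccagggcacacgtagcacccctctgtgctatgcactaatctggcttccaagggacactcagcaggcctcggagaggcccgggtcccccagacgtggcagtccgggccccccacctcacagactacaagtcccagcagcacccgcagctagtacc
*Anln*: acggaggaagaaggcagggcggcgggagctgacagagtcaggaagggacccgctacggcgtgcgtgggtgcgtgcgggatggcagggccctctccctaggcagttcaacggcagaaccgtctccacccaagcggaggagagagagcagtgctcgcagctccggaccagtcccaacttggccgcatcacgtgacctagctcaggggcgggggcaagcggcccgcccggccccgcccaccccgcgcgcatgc

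The *Sept4* window lies inside the gene, in the introns of its longer transcripts, and its last 20 bases, which are exonic in a shorter transcript, are not shown. The *Sept8* window lies in an intron of 1 longer transcript, and no annotated transcript crosses the *Anln* window. The motifs searched on both strands of the 250 bases were the SOX core ACAAAG, the core of the myelin regulator Myrf (CTGGCAC or CTGGTAC), and the CCAAT box CCAAT and the element TTTGAA, both known from cell cycle promoters. The *Sept4* window held ACAAAG at 2 places and CCAAT at 2, of which 1 falls in the part not shown, and none of these matches overlapped another. The *Sept8* and *Anln* windows held none of the 4 motifs and so carry no capitals. Of 32851 such windows in the RefSeq table, 16.5% held ACAAAG, 5.93% the Myrf core, 33.9% CCAAT and 16.0% TTTGAA. The table held 4 windows of *Sept4* and 2 of *Sept8*, of which the one whose first exon most annotated transcripts share was taken, or else the first, and the others also held none of the 4 motifs. Windows were found for 7 of the 9 genes, and a match in one says nothing about binding.

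The libraries held about 960000 to 1530000 fragments each, as read from the spacing of the lowest FPKM values. Genes that mark the 2 ends of the course moved as their days are labelled: *Pdgfra*, the receptor used for the capture, went from a mean of 443.1 to 17.9 FPKM, and *Mbp*, a major protein of compact myelin, from 73.7 to 10349 FPKM. *Gfap*, an astrocyte gene, stood at 14.7 to 45.5 FPKM in the 4 libraries of replicate 1 and at 153.9 to 602.8 FPKM in those of replicate 2. All 8 astrocyte markers together summed to 191.3 to 495.6 FPKM in replicate 1 and to 380.2 to 1062 FPKM in replicate 2, and none was at 0 throughout. The 7 neuron markers summed to 39.4 to 233.4 FPKM, most of it *Tubb3*, while *Rbfox3*, which defines mature neurons, was at 0 in 6 of the 8 libraries and at most 0.305 FPKM. Of 7 microglia markers 6 were at 0 in every library, and the 5 endothelial markers summed to at most 3.31 FPKM. From Day 1 on the 14 myelin genes listed below summed higher in replicate 2 than in replicate 1 (30697 against 22847 FPKM on Day 3). The 7 genes listed as OPC markers summed lower in it (1073 against 1294 FPKM on Day 3). In such bulk samples, fewer cells of a type and less RNA per cell cannot be told apart.

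Changes between days were tested with limma on log2(FPKM + 1) over 12208 genes, with the Benjamini-Hochberg adjustment over all of them and a call at an adjusted p under 0.05. All 9 genes passed the filter on low values (FPKM of at least 1 in 2 libraries). On this scale the fold change of a gene near 1 FPKM is understated. A difference among the 4 days was called for 7 of the 9 genes, where 35.2% of all genes were called, and the exceptions were *Sept2* and *Sept7*. Over the 16 other settings that gave this test, 6 to 9 of the 9 were called. The call of *Sept9* was lost without replicate 1 of Day 0 (adjusted p = 0.140), replicate 2 of Day 0 (0.0939) or replicate 1 of Day 2 (0.0536), and with median ratio scaling *Sept2* (0.0463) and *Sept7* (0.0409) were called as well. Between Day 0 and Day 3, 1 of the 9 was higher (*Sept4*), where 12.0% of all genes were. In the same comparison 5 of the 9 were lower (*Sept6*, *Anln*, *Sept8*, *Sept11* and *Sept9*), where 26.3% of all genes were. The median change of the 9 was -1.20 and that of all genes tested -0.31 on the log2 scale. Scaling by the median ratio of all genes, which brought that median to -0.04, gave 2137 genes higher and 2045 lower in place of 1460 and 3207, and 3 of the 9 higher (*Sept4*, *Sept7* and *Sept2*). By the same test 6 of 7 genes listed as OPC markers were lower and 0 higher (also 0 at an unadjusted p under 0.05). *Cspg4* (-4.96), *Pdgfra* (-4.87), *Ptprz1* (-2.60) and *Olig1* (-1.13) changed the most. The list includes *Olig2*, which the paper uses for the whole OL lineage. From Day 0 to Day 1, 5 of the 7 were lower and 2 higher, where 7.56% and 5.04% of all genes were. *Gpr17* went from a mean of 255.6 to 451.4 FPKM in that step. Of 8 astrocyte markers *S100b*, which OLs also express, was higher on Day 3 than on Day 0 (1.96) and 0 were lower. *Gfap* was not called (1.76 ± 1.75, adjusted p = 0.457), but it differed widely between the replicates and rose in both. It went from 14.7 to 45.5 FPKM in replicate 1 and from 153.9 to 602.8 FPKM in replicate 2. *Aqp4*, *Gja1* and *Aldoc* also rose in both replicates, while *Slc1a3*, *Slc1a2* and *Aldh1l1* fell in replicate 1. Of 5 neuron markers tested *Tubb3* was higher (2.15) and *Nefm* and *Nefl* were lower.

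**Figure D1:**
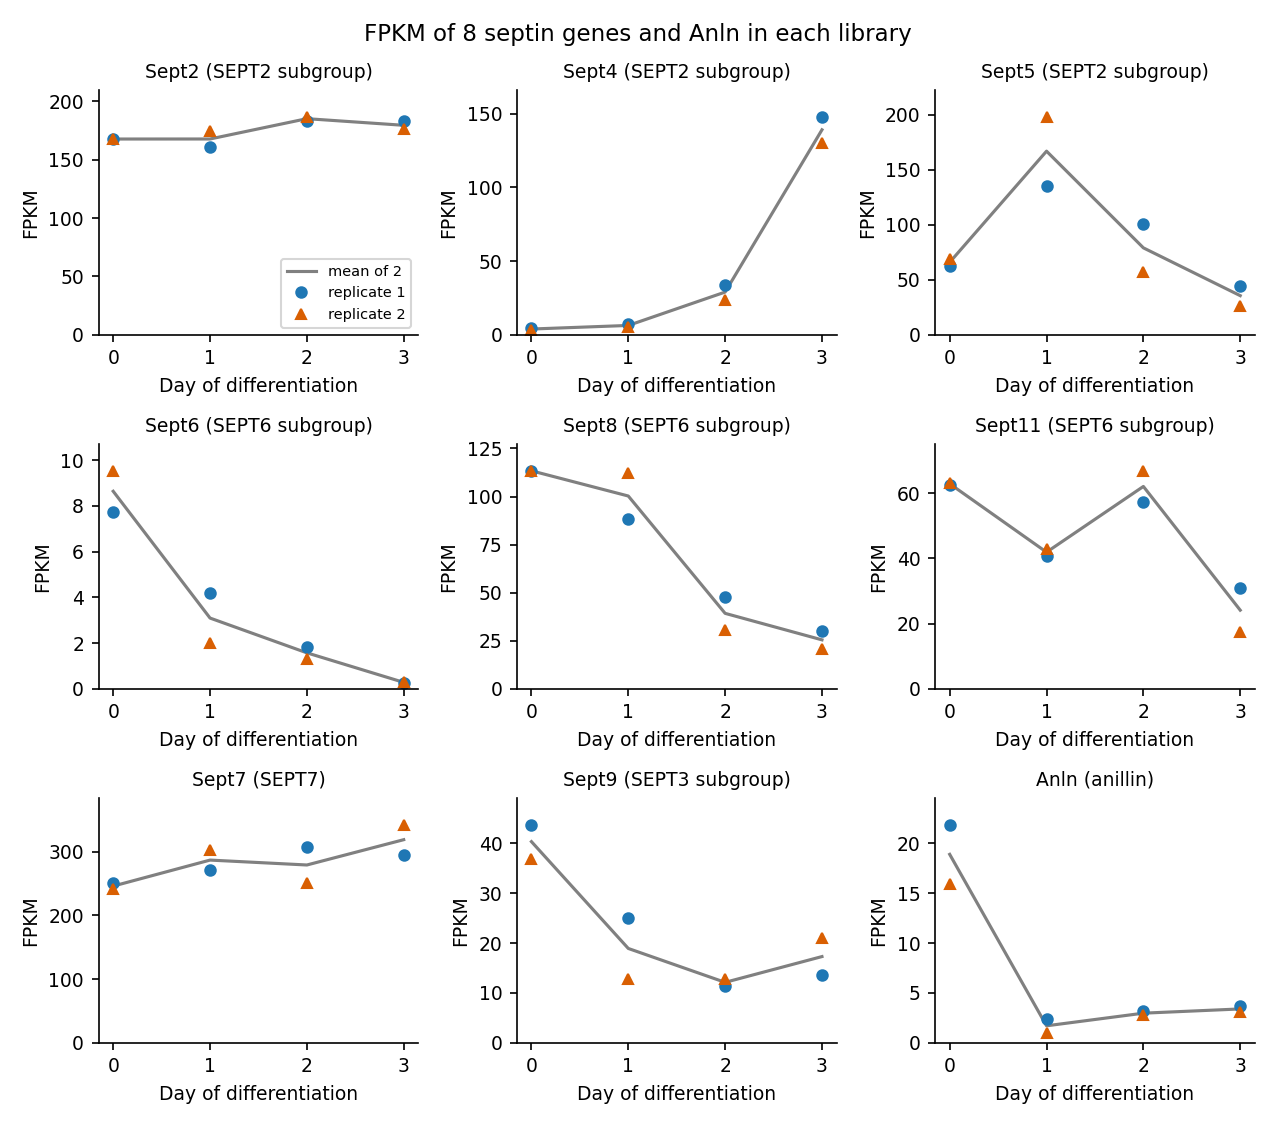
FPKM (vertical axis, from 0, a scale of its own in each panel) against the day of differentiation for the 8 septin genes and *Anln*, with circles for replicate 1, triangles for replicate 2 and a line through the mean of both. *Sept4* climbs to between 130.2 and 147.9 FPKM on Day 3, *Sept5* peaks on Day 1, and *Anln* is below 4 FPKM in every library after Day 0.

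The SEPT2 subgroup held the member that rose, *Sept4*, the early peak of *Sept5* and the steady *Sept2*. *Sept4* (chr11:87568903-87590539, plus strand) encodes a septin of myelin, neurons and the sperm tail. It measured 4.38 and 3.49 FPKM (Day 0), 7.48 and 5.26 (Day 1), 34.1 and 23.9 (Day 2) and 147.9 and 130.2 (Day 3), replicate 1 before replicate 2. No 2 days overlapped, and replicate 2, with the higher astrocyte marker sum, was the lower on every day. Between Day 0 and Day 3 the astrocyte marker sum rose from 191.3 to 413.6 FPKM in replicate 1 and from 380.2 to 1062 FPKM in replicate 2. Most of the rise was *S100b*, which OLs also express, in replicate 1 (71.0 to 266.0 FPKM). In replicate 2 most of it was *Gfap* (153.9 to 602.8 FPKM). The neuron marker sum was also the lower in replicate 2 on every day. It rose from 70.6 to 233.4 FPKM in replicate 1 and from 39.4 to 117.3 FPKM in replicate 2 between Day 0 and Day 3. That rise was *Tubb3* (60.2 to 230.9 FPKM in replicate 1 and 20.8 to 112.7 FPKM in replicate 2). *Snap25*, *Syt1*, *Nefl* and *Nefm* fell in both replicates, and *Rbfox3* and *Stmn2* were at most 0.482 FPKM on these 2 days. The part of either sum in the value of *Sept4* was not tested. The change from Day 0 to Day 3 was 4.83 ± 0.24 on the log2 scale (SE, adjusted p = 4.78e-05), the 16th highest of the 12208 genes, and 4.79 in replicate 1 and 4.87 in replicate 2 taken alone. The FPKM of Day 3 was 35.3 times that of Day 0, which rested on 11 and 7 fragments, against 264 and 204 on Day 3.

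The rise of *Sept4* was called in both later steps. From Day 1 to Day 2 it rose by 2.02 ± 0.24 (adjusted p = 0.00747) and from Day 2 to Day 3 by 2.24 ± 0.24 (adjusted p = 0.0232). The first day's change of 0.57 ± 0.24 was not called (adjusted p = 0.171). Without replicate 2 of Day 2 the change from Day 1 to Day 2 was 2.27 (adjusted p = 0.0529), and a fit of only those days gave an adjusted p of 0.116. The call from Day 2 to Day 3 was lost without either library of Day 0 or Day 2 or replicate 2 of Day 3, with adjusted p = 0.111 to 0.210 and changes of 1.99 to 2.49, and without a trend (0.0604), without the filter (0.0598) or in a fit of only those days (0.261), while the rise from Day 0 to Day 3 was called in all 18 settings tried.

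*Sept5* (chr16:18620502-18629954, minus strand), best known from synaptic vesicle release, measured 62.9 and 68.8 FPKM (Day 0), 135.4 and 198.0 (Day 1), 101.0 and 56.9 (Day 2) and 44.6 and 26.5 (Day 3). Both Day 1 libraries stood above all others and both Day 3 libraries below all others. *Sept5* rose by 1.30 ± 0.32 from Day 0 to Day 1 (adjusted p = 0.0340) and fell by 2.22 ± 0.32 from Day 1 to Day 3 (adjusted p = 0.00380). The first call was lost without replicate 1 of Day 0 (adjusted p = 0.178), replicate 2 of Day 0 (0.152) or replicate 2 of Day 1 (0.194), without a trend (0.0759) or without the filter (0.0626). Day 3 against Day 0 gave -0.91 ± 0.32 (adjusted p = 0.0544). It was called in 5 of 18 settings, among them the replicate number as a block (adjusted p = 0.0419) and the filter of 10 FPKM (0.0450). Over the settings the change was -1.28 to -0.55. Of the 31-base stretches of its transcripts, 81.8% occur in another annotated gene, the read-through *Gm49601* above all, so that its level is uncertain. *Gp1bb*, which overlaps it by 1902 bases on the same strand, also stood highest on Day 1, at 21.4 and 23.7 FPKM against 0 to 6.46 FPKM elsewhere, and its part in the value of *Sept5* was not tested.

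*Sept2* (chr1:93478964-93510260, plus strand), which gives its subgroup the name and acts in cytokinesis, had the lowest ratio of its highest to its lowest library of the 9. It measured 167.9 and 167.3 FPKM (Day 0), 160.9 and 174.4 (Day 1), 183.3 and 186.8 (Day 2) and 182.8 and 175.9 (Day 3). Day 0 and Day 1 overlapped, and the later days lay above them. The change from Day 0 to Day 3 was 0.10 ± 0.11 (adjusted p = 0.533), or 0.41 above the median of all genes, and it was called only with median ratio scaling (0.41, adjusted p = 0.0301). Of the summed FPKM of *Sept2*, *Sept4* and *Sept5*, *Sept4* made up 1.66% on Day 0 and 39.3% on Day 3, *Sept5* went from 27.7% to 48.5% on Day 1 and 9.93% on Day 3, and *Sept2* from 70.6% to 50.8%. With *Sept1*, another gene of the subgroup, counted as well, *Sept4* stood at 39.0% on Day 3. The log2 ratio of *Sept4* to *Sept2*, which a rescaling of a library moves only through the pseudocount, rose by 1.61 per day. Its exact permutation p was 0.000794 (two-sided, over 2520 arrangements, the smallest they can give), or 0.00238 adjusted over the 3 ratios tested. With days permuted only within a replicate number (576 arrangements) the permutation p was 0.00347, or 0.0104 adjusted.

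**Figure D2:**
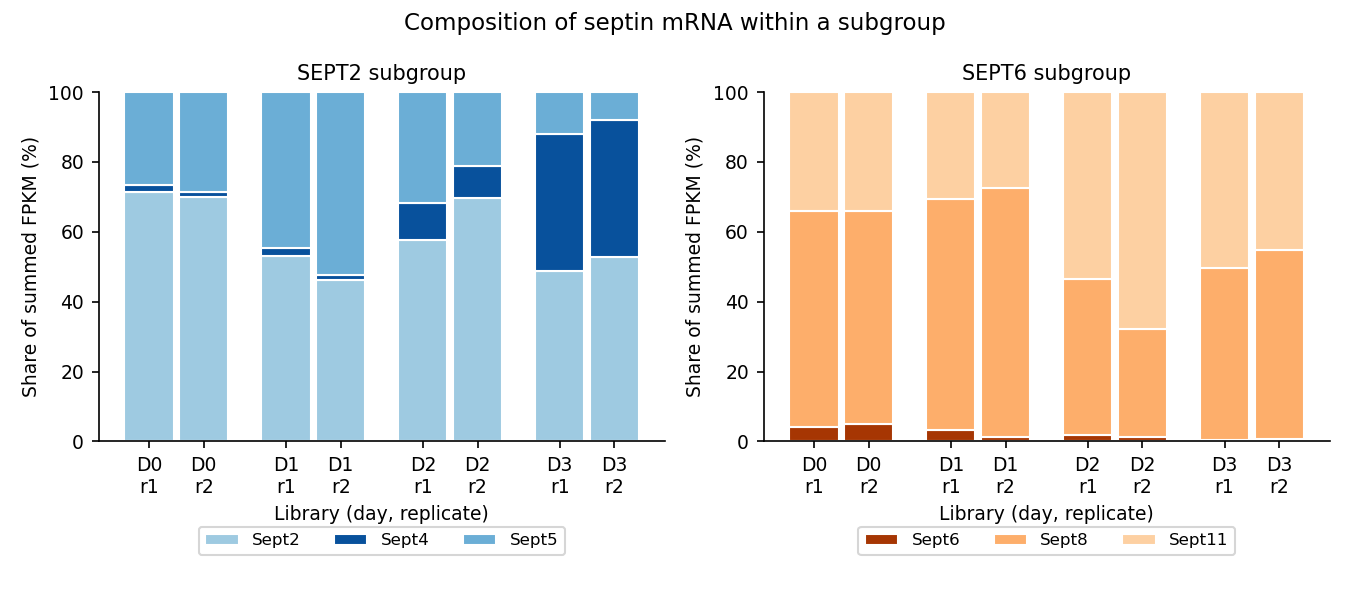
Share of each gene in the summed FPKM of the 3 genes drawn of its subgroup (*Sept1*, *Sept10* and *Sept14* are left out; bars, in percent, from 0 to 100) in each library (horizontal axis, day and replicate). On the left *Sept4* takes 39.1% to 39.4% in the Day 3 libraries, and on the right *Sept11* passes *Sept8* in both Day 2 libraries.

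The SEPT6 subgroup was represented by *Sept8*, *Sept11* and *Sept6*, all called lower on Day 3 than on Day 0, whose summed level was 184.9 FPKM on Day 0 and 49.9 FPKM on Day 3. With *Sept10*, which belongs to the same subgroup but not to the 9 genes, the sums were 198.5 and 56.1 FPKM. *Sept8* (chr11:53519257-53549565, plus strand), another septin of the myelin filament, measured 113.3 and 113.4 FPKM (Day 0), 88.4 and 112.1 (Day 1), 48.0 and 30.5 (Day 2) and 30.3 and 20.7 (Day 3). Both later days lay below both earlier days. It fell by 2.14 ± 0.25 from Day 0 to Day 3 (adjusted p = 4.38e-04), in replicate 1 alone by 1.87 and in replicate 2 alone by 2.40. Its fall of 1.36 ± 0.25 from Day 1 to Day 2 (adjusted p = 0.0294) was no longer called without any 1 library of Day 0 or Day 1 or without replicate 2 of Day 2, with changes of -1.53 to -1.04 and adjusted p = 0.0757 to 0.182. It was also lost without a trend (0.0770), without the filter (0.0585) and in a fit of only those days (0.134).

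*Sept11* (chr5:93093437-93176447, plus strand), of the same subgroup and known from dendrites, did not fall steadily. It measured 62.6 and 63.1 FPKM (Day 0), 40.9 and 42.9 (Day 1), 57.2 and 66.9 (Day 2) and 30.9 and 17.3 (Day 3). Day 0 and Day 2 overlapped, and Day 1 lay between them and Day 3. The fall from Day 0 to Day 3 was 1.40 ± 0.24 on the log2 scale (adjusted p = 0.00262). The dip on Day 1 was -0.57 ± 0.24 (adjusted p = 0.169) and the return on Day 2 was 0.55 ± 0.24 (adjusted p = 0.227). The dip was called without replicate 1 of Day 3 (adjusted p = 0.0347), without replicate 2 of Day 3 (0.0340) and in a fit of only those days (0.0435), with 0.0340 to 0.415 over the settings. From Day 2 to Day 3 the change of -1.38 ± 0.24 (adjusted p = 0.0682) was called with the replicate number as a block (adjusted p = 0.0415), and without replicate 1 of Day 3 (-1.78, adjusted p = 0.0152), with 0.0152 to 0.315 over the settings.

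*Sept6* (chrX:36911326-36991794, minus strand), which names the subgroup, was the least abundant of these 3 and went down from day to day. It measured 7.74 and 9.54 FPKM (Day 0), 4.19 and 2.01 (Day 1), 1.85 and 1.30 (Day 2) and 0.264 and 0.301 (Day 3). No 2 days overlapped, but the lower Day 1 library rests on about 8.9 fragments and the higher Day 2 library on about 7.8. By limma no step between neighbouring days was called. The adjusted p was 0.0510 (Day 0 to Day 1), 0.336 (Day 1 to Day 2) and 0.245 (Day 2 to Day 3). The fall from Day 0 to Day 3 was 2.90 ± 0.36 (adjusted p = 5.30e-04). At the estimated depth each Day 3 value stands for about 1 fragment, under the 3 fragments below which a level was not taken as measured. Day 3 thus held 2 fragments against 82 on Day 0, a level of 3.29% of that of Day 0 with a 95% interval of 0.392% to 12.3% (exact Clopper-Pearson, counting error only).

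Between *Sept8* and *Sept11* the order changed with the day. *Sept8* took 61.3% and 68.8% of the summed FPKM of *Sept6*, *Sept8* and *Sept11* on Day 0 and Day 1, 37.9% on Day 2 and 51.6% on Day 3. With *Sept10* in the sum these shares were 57.1%, 65.5%, 35.8% and 45.4%. The ratio of *Sept8* to *Sept11* was 1.81 and 1.80 (Day 0), 2.16 and 2.61 (Day 1), 0.838 and 0.456 (Day 2) and 0.979 and 1.19 (Day 3). All 4 libraries of the first 2 days lay above all 4 of the last 2. The slope of the log2 ratio was -0.41 per day, which did not pass (two-sided exact permutation p = 0.116, also 0.116 adjusted over the 3 ratios).

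*Sept7* (chr9:25252439-25308571, plus strand), the septin that every rod needs, was the most abundant of the 9 on each day. It measured 250.6 and 241.1 FPKM (Day 0), 271.2 and 302.1 (Day 1), 307.5 and 250.4 (Day 2) and 295.1 and 342.2 (Day 3). Only Day 0 and Day 3, and Day 0 and Day 1, were apart. The change from Day 0 to Day 3 was 0.37 ± 0.15 (adjusted p = 0.0828), 0.68 above the median of all genes. It was called with equal library sums (0.52, adjusted p = 0.0302), median ratio scaling (0.69, adjusted p = 0.00984) and quantile normalization (0.76, adjusted p = 0.0110). Its share of the summed FPKM of these 8 septins went from 34.7% to 43.1%, while that sum stayed between 686.9 and 791.6 FPKM in the means of the 4 days.

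*Sept9* (chr11:117199661-117362325, plus strand), of the SEPT3 subgroup and a stabiliser of septin rods and stress fibres, fell early. It measured 43.7 and 36.9 FPKM (Day 0), 25.1 and 12.7 (Day 1), 11.4 and 12.8 (Day 2) and 13.6 and 21.0 (Day 3). Both Day 0 libraries lay above all others, and Day 1 overlapped both later days. The fall from Day 0 to Day 3 was 1.20 ± 0.32 (adjusted p = 0.0183), and it was lost without replicate 1 of Day 0 (adjusted p = 0.111), replicate 2 of Day 0 (0.0661) or replicate 1 of Day 3 (0.0978), and with median ratio scaling (0.0631). The change over the first day was -1.12 ± 0.32 (adjusted p = 0.0541), called with the replicate number as a block (adjusted p = 0.0480) and without replicate 1 of Day 1 (-1.58, 0.0168), with 0.0168 to 0.254 over the settings.

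*Anln* (chr9:22332012-22389188, minus strand) fell within a day and did not return. It measured 21.9 and 15.9 FPKM (Day 0), 2.41 and 1.01 (Day 1), 3.18 and 2.77 (Day 2) and 3.72 and 3.08 (Day 3). Both Day 0 libraries lay far above the other 6, and Day 1 was the lowest day. These values rest on 182 and 106 fragments (Day 0), 16 and 7 (Day 1), 21 and 20 (Day 2) and 22 and 16 (Day 3). *Anln* fell by 2.91 ± 0.33 from Day 0 to Day 1 (adjusted p = 0.00138) and was lower on Day 3 than on Day 0 by 2.17 ± 0.33 (log2 change -2.17, adjusted p = 0.00164). From Day 1 to Day 3 its change was 0.75 ± 0.33, with adjusted p = 0.156, and higher in both replicates.

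*Anln* was set beside a list of 16 genes drawn up for the contractile ring and midbody, the structures that divide a cell. The list also holds *Mki67*, a proliferation marker. Of all genes, 7.56% were called lower and 5.04% higher on Day 1 than on Day 0, and 26.3% lower and 12.0% higher on Day 3. Over the first day 14 of the 16 were lower and 0 higher (limma, also 0 higher in the 17 other settings), with a median of -3.82. At an unadjusted p under 0.05, 1 was higher, *Rhoa*, named here after its value was seen. By Day 3, 15 were lower and *Rhoa*, the small GTPase that switches the ring on, was higher (0.42 ± 0.12, adjusted p = 0.0254), a call lost without either library of Day 0 or replicate 2 of Day 3. The largest falls from Day 0 to Day 3 were those of *Birc5* (-5.26), *Plk1* (-4.92), *Mki67* (-4.80) and *Kif20a* (-4.77), which encode a chromosomal passenger, a mitotic kinase, a proliferation marker and a midzone kinesin. On Day 1, 12 of the 16 had changed by a lower value than *Anln*, and on Day 3, 14 of them.

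*Racgap1*, a midzone protein that binds anillin, measured 135.8 and 106.6 FPKM (Day 0), 9.17 and 2.67 (Day 1), 3.36 and 0.980 (Day 2) and 4.38 and 3.92 (Day 3). The ratio of *Anln* to *Racgap1* was thus 0.161 and 0.149 (Day 0), 0.262 and 0.378 (Day 1), 0.946 and 2.83 (Day 2) and 0.850 and 0.786 (Day 3). It was lower in the Day 0 libraries than in all others. The log2 ratio rose by 0.88 per day (two-sided exact permutation p = 0.0151, or 0.0226 adjusted over the 3 ratios). *Racgap1* is among the 14 of the 16 listed genes that had changed by a lower value than *Anln* by Day 3. It was chosen with earlier results of these data known, and the p does not cover that choice. With days permuted only within a replicate number the permutation p was 0.0278, or 0.0417 adjusted. Without either library of Day 0 the slopes were 0.80 and 0.78, and the adjusted p was 0.0667. The highest ratio, that of replicate 2 on Day 2, rests on the lowest *Racgap1* level, 0.980 FPKM.

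**Figure D3:**
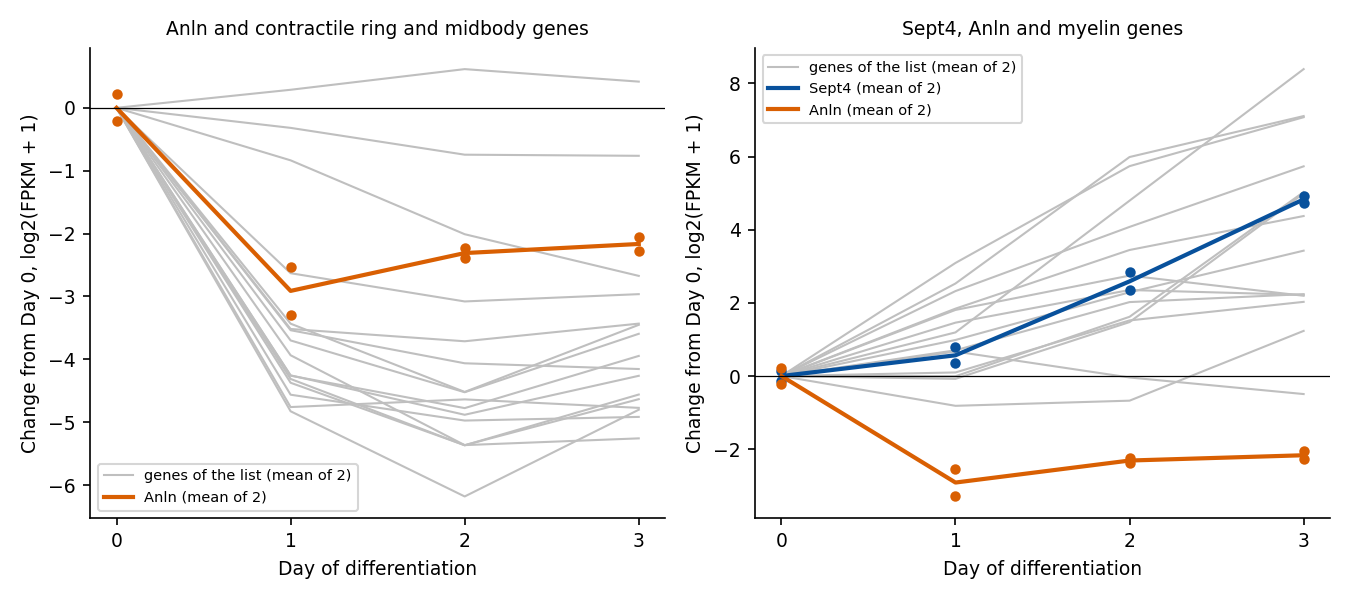
Change from the Day 0 mean on the log2(FPKM + 1) scale (vertical axis) against the day of differentiation, with a grey line for the mean of each gene of a list and coloured lines for the means and points for the libraries of *Anln* and *Sept4*. On the left *Anln* lies above 14 of the 16 genes of the contractile ring and midbody list, which also holds *Mki67*, on Day 3. On the right *Sept4* runs among 14 myelin genes while *Anln* stays below 0.

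Among 14 genes of noncompact and compact myelin, 13 were higher on Day 3 than on Day 0, where 12.0% of all genes were. *Cd9* was the gene not called, and the median change of the 14 was 3.90. The largest changes were those of *Mobp* (8.39), *Mbp* (7.11), *Mag* (7.08) and *Mog* (5.73), and *Cnp*, an enzyme of noncompact myelin, changed by 2.22. *Sept4* at 4.83 lay above 8 of the 14 and below 6. From Day 2 to Day 3 its 2.24 lay above 11 of the 14. In that step limma called 0 of the 14 higher (9 at an unadjusted p under 0.05), against 7 with the replicate number as a block and 4 without replicate 1 of Day 3. Of the other genes of the myelin filament, *Sept8* and *Anln* went down and *Sept2* and *Sept7* were not called.

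Step by step, few of the 9 were called. From Day 0 to Day 1, 1 was higher, *Sept5*, and 1 lower, *Anln*, where 5.04% of all genes were higher and 7.56% lower. With the replicate number as a block *Sept6* (-1.28, adjusted p = 0.0430) and *Sept9* (-1.12) were lower as well. From Day 1 to Day 2, 1 was higher, *Sept4*, and 1 lower, *Sept8*, where 2.16% and 1.73% of all genes were. From Day 2 to Day 3, *Sept4* was the 1 called higher, where 0.246% of all genes were, and 0 were called lower by limma (4 at an unadjusted p under 0.05, 1 with the replicate block), where 0.0491% of all genes were. From Day 1 to Day 3, 1 was higher, *Sept4*, and 4 lower, *Sept5*, *Sept8*, *Sept6* and *Sept11*, where 7.04% and 12.2% of all genes were. Of these, the call of *Sept6* was lost without replicate 1 of Day 1 (adjusted p = 0.0966) or replicate 2 of Day 3 (0.0734), and in a fit of only those days (0.0722). That of *Sept11* (-0.83, adjusted p = 0.0456) was lost in 14 of 17 other settings.

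**Figure D4:**
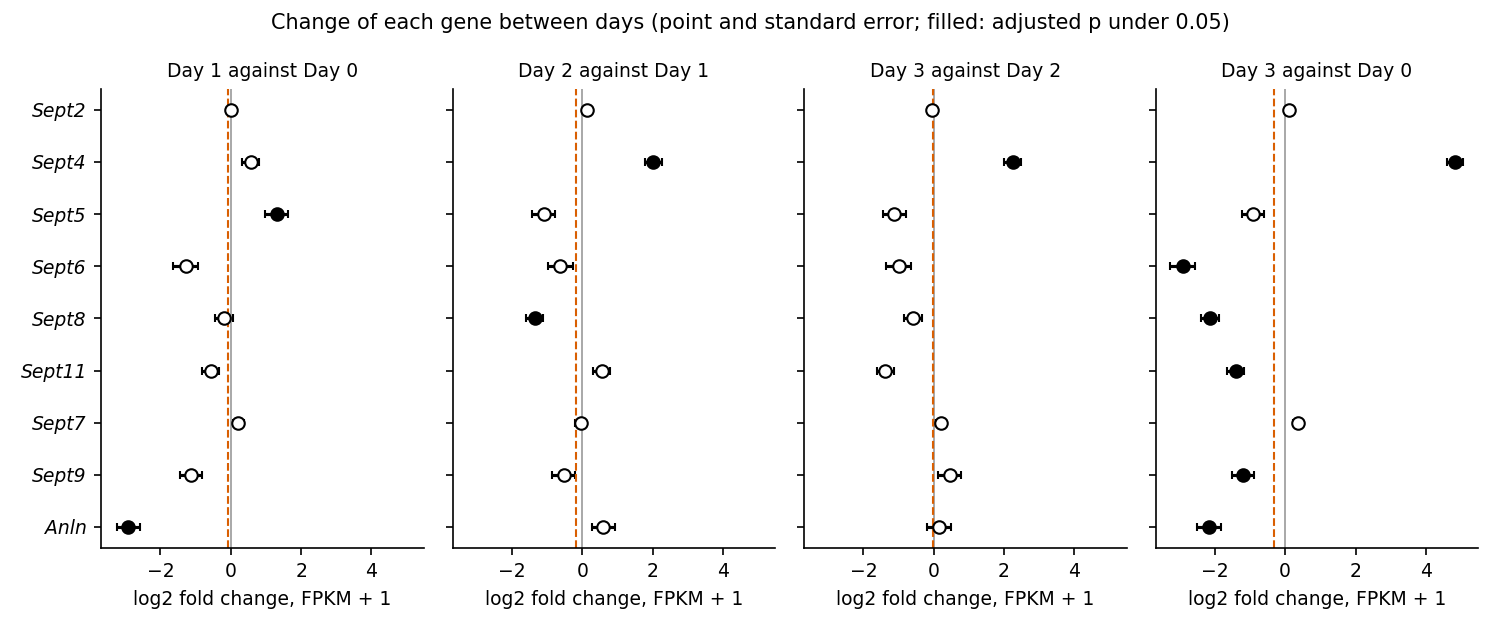
Log2 fold change with its standard error (horizontal axis) of each of the 9 genes (rows) in 4 comparisons of days, filled where the adjusted p was under 0.05, with a dashed line at the median of all 12208 genes. *Sept4* is filled on the right in 3 of the 4 panels, and 5 genes are filled on the left from Day 0 to Day 3.

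On Day 0 the order of levels was *Sept7*, *Sept2*, *Sept8*, *Sept5*, *Sept11*, *Sept9*, *Anln*, *Sept6* and *Sept4*, and only *Sept5* and *Sept11* overlapped. On Day 3 it was *Sept7*, *Sept2*, *Sept4*, *Sept5*, *Sept8*, *Sept11*, *Sept9*, *Anln* and *Sept6*. There *Sept5*, *Sept8*, *Sept11* and *Sept9* each overlapped the next. *Sept4* thus moved from the last place to the third.

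The table held 5 other septin genes, which together measured at most 66.6 FPKM in a library. Of these, *Sept12* and *Sept14* were listed at 0 in every library and *Sept1* reached 2.87 FPKM at most. From Day 0 to Day 3, 26.3% of all genes were called lower and 12.0% higher. *Sept3*, a septin of neurons, went from 49.1 ± 1.5 to 20.4 ± 5.7 FPKM and fell by 1.26 ± 0.20 (Day 0 to Day 3, adjusted p = 0.00172). *Sept10*, of the SEPT6 subgroup, went from 13.6 ± 1.5 to 6.26 ± 1.02 FPKM and fell by 1.01 ± 0.27 (adjusted p = 0.0197). So 2 of the 3 tested were lower and 0 higher, also at an unadjusted p under 0.05, with 1 lower under median ratio scaling, under quantile normalization and without either library of Day 0 or replicate 1 of Day 3.

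Among Cdc42 and the 5 Borg proteins (*Cdc42ep1* to *Cdc42ep5*), which bind Cdc42 and septins and steer where filaments form, 1 was higher and 1 lower on Day 3 than on Day 0. Of all genes, 12.0% were higher and 26.3% lower, so these counts do not set the 6 genes apart. *Cdc42ep2* measured 0.437 and 0 FPKM (Day 0), 0 and 2.62 (Day 1), 1.10 and 11.1 (Day 2) and 19.7 and 44.8 (Day 3). From Day 1 on it was higher in replicate 2, which then had the higher sums of astrocyte markers and of the 14 myelin genes. The part of either sum in it was not tested. By limma its log2 change from Day 0 to Day 3 was 4.68 ± 0.87 (adjusted p = 0.00391). *Cdc42ep5* went from 12.1 and 6.60 FPKM on Day 0 to 2.12 and 0 on Day 3, a change of -2.50 ± 0.67 (adjusted p = 0.0193). Without either library of Day 0 or replicate 2 of Day 3, and with a pseudocount of 0.1, 0 of the 6 were lower. With median ratio scaling 3 of the 6 were higher, and with quantile normalization 4, where 2137 and 2075 of all genes were higher in place of 1460.

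For 4 of the 9 the genes with the most similar course were listed by Pearson's r of log2(FPKM + 1) over the 8 libraries, among 8200 other genes of at least 10 FPKM in a library. The libraries share days, so these values are a description. *Anln* was most like *Depdc1b* (0.98), *Ccne2*, *Zwilch*, *Arl6ip1* and *Vrk1*, of which *Ccne2* encodes a cyclin of the entry into S phase and *Zwilch* a kinetochore protein. *Sept4* was most like *Psd3* (0.99), *Hhip*, *Add1*, *Dgat2* and *Plk3*, of which *Add1* encodes an adducin of the membrane skeleton and *Dgat2* an enzyme of triglyceride synthesis. *Sept8* was most like *Arrb2* (0.997), *Slitrk2*, *Usp7*, *Rbfox2* and *Sema5b*, and *Sept11* most like *Smarcd1* (0.98), *Nutf2*, *Sec22c*, *Orai1* and *Pgls*. *Dgat2* went from 6.37 and 7.60 FPKM on Day 0 to 236.6 and 194.3 on Day 3, and *Arrb2*, a β-arrestin, from 21.3 and 21.9 to 9.38 and 8.01.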

How the data were processed

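The authors made stranded mRNA libraries from 2 replicates per day, sequenced them as 75-nt paired ends, processed the reads in OmicSoft ArrayStudio and deposited FPKM per gene and library. The submitters' processing notes name mm10. The aligner, the gene model and the use of strand are not given in the sources used here. Depth was taken from the spacing of the lowest FPKM values. For *Sept4* and *Anln* a transcript length was then searched for at which the values come closest to whole fragments. At that length they were whole within 0.05 in all 8 libraries, which is no check of the depth because the length was fitted to it. Days and replicate numbers came from the labels. Because the values are FPKM, a count test was not used.

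Genes with FPKM of at least 1 in 2 libraries were tested with limma 3.58.1 in R 4.3.3 (lmFit, eBayes with a trend) on log2(FPKM + 1), 1 fit of all 8 libraries with day as a factor. Ratios were tested by exact permutation of the slope on day in Python 3.11.15 with scipy 1.17.1. The scripts were tested on simulated data. Replicate differences of same-numbered libraries correlated between days (r = 0.16 to 0.29 over 6 pairs of days, across genes). The numbers of the labels were therefore taken to pair the libraries. The main tests leave this pairing out, and the replicate block, which takes it in, was an alternative. The others were a pseudocount of 0.1 (for ratios also none), no filter, a filter of 10 FPKM, equal sums, median ratio scaling, quantile normalization, a fit of only the days compared, no trend and each library left out. Replicate 1 alone was added after seeing the data. The genes and lists were chosen with earlier results of these data known, which the p-values do not cover. Of each list, at most the 4 largest called changes from Day 0 to Day 3 are named, with *Racgap1*, *Pdgfra*, *Mbp*, *Cnp* and *Gfap*, and other genes were named after their values were seen. Coordinates are from GENCODE M21 and upstream sequences from RefSeq, both on GRCm38.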

Additional observations from a re-analysis of the deposited data

How the results depend on the processing

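The rise of *Sept4* and the falls of *Sept6*, *Sept8*, *Sept11* and *Anln* from Day 0 to Day 3 were called in every setting that gave a value (18, and 17 for *Sept6*, which the filter of 10 FPKM removed). From Day 0 to Day 3 the genes called higher were 2 with equal sums, 3 with median ratio scaling and 2 with quantile normalization. Of all genes tested, 1745, 2137 and 2075 were called higher in these 3 settings, in place of 1460. Of the septin and anillin genes, 4 in place of 5 were lower with median ratio scaling and without either library of Day 0. With the replicate block and without either library of Day 2, 6 of them were lower. From Day 0 to Day 1 those higher were 0 without a trend, 0 without a filter and 2 with quantile normalization, and those lower were 2 without a trend, 2 with the filter of 10 FPKM, 2 in the fit of only the days compared and 3 with the replicate block. From Day 1 to Day 2, 0 were higher in the fit of only those days, and 0 lower in that fit, without a trend and without a filter. From Day 2 to Day 3, 0 were higher in those same 3 settings, and 1 was lower with the replicate block. From Day 1 to Day 3, 2 were lower in the fit of only those days. Leaving out 1 library gave 0 to 1 higher and 1 to 3 lower from Day 0 to Day 1, 0 to 1 of each from Day 1 to Day 2 and from Day 2 to Day 3, and 2 to 4 lower from Day 1 to Day 3. It gave slopes of the *Anln* to *Racgap1* ratio of 0.78 to 1.04. Beside the calls named with the results, the replicate block changed no other call.

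Changes near 0 turned sign in 12 cases, and the cause was not tested. *Sept2* from Day 0 to Day 1 was 0.0868 with equal sums, 0.0830 with median ratio scaling and -0.0590 to 0.0572 without 1 library. *Sept2* from Day 2 to Day 3 was 0.0290 with quantile normalization. *Sept7* from Day 1 to Day 2 was 0.15 with median ratio scaling and -0.19 to 0.10 without 1 library. *Sept9* from Day 1 to Day 3 was 0.14 with median ratio scaling, 0.0718 with quantile normalization and -0.54 to 0.38 without 1 library. Over all genes, called counts ran from 583 to 1844 from Day 0 to Day 1 (1538 as reported), from 0 to 803 from Day 1 to Day 2 (475), from 0 to 223 from Day 2 to Day 3 (36), from 2769 to 5168 from Day 0 to Day 3 (4667), from 846 to 2841 from Day 1 to Day 3 (2344) and from 2100 to 5004 for any difference (4292). Depth limits *Sept6*, *Anln* and *Sept4* where they rest on under 25 fragments a library.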

Other observations

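Replicate 1 taken alone changed in the same direction as the fit for all 9 genes from Day 0 to Day 3. The log2 differences were 4.79 for *Sept4*, -2.79 for *Sept6*, -2.28 for *Anln*, -1.87 for *Sept8*, -1.62 for *Sept9* and -0.99 for *Sept11*. With 1 library a day these differences have no test. The libraries of replicate 1 are part of the fit, so the shared direction is no separate support. Replicate 1 had the lower astrocyte marker sum, but *Gfap* rose in it from 14.7 to 45.5 FPKM. Its neuron marker sum, most of it *Tubb3*, was the higher on every day, and its sum of the 14 myelin genes was the lower from Day 1 on. The part of any of these sums in these differences was not tested.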
